A study of Danio rerio with 2 samples.

Results

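The genes described here are 7 zebrafish genes of MHC class I antigen processing, *tap2a*, *tap1*, *psmb8a*, *psmb9a*, *psmb12*, *psmb13a* and *psmb10*, of the 32057 genes counted in the pituitary libraries. They were named because some of them had been seen to be low in the mutant library, so their difference between the libraries is a description and carries no test. Of the 7 symbols, 6 were found as written, and *tap1* was taken as the gene listed in capitals as *TAP1* (ENSDARG00000079766). The members with UMIs were *tap2a* (ENSDARG00000036787), *psmb8a* (ENSDARG00000001303), *psmb9a* (ENSDARG00000000656), *psmb12* (ENSDARG00000031885), *psmb10* (ENSDARG00000043781) and *TAP1*, and 6 of the 7 held at least 50 UMIs over both libraries, the minimum for a ratio. *psmb13a* (ENSDARG00000001656) held 0 UMIs in each library. The counts are those of the copies annotated in the reference genome. How far reads from divergent copies are counted under them was not tested, so a low count need not be a low transcript level. The related genes *psmb8f*, *psmb9b* and *psmb13b* were not found under these symbols among the counted genes, so no values are given for them.

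Nearly all nucleated cells show short peptides of their own proteins to T cells on MHC class I molecules. The peptides are cut by the proteasome, whose constitutive catalytic subunits are exchanged in immune cells and under interferon for the immunoproteasome subunits encoded by *psmb8a*, *psmb9a* and *psmb10*. *psmb12* and *psmb13a* encode further beta subunits of this kind that fish carry and mammals lack. The proteins of *TAP1* and *tap2a* form the transporter that carries the peptides into the endoplasmic reticulum, where tapasin (*tapbp.2*) helps to load them onto the class I heavy chain. In zebrafish, the core MHC locus holds many of these genes side by side and is known for divergent haplotypes among lines and fish.

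Pituitaries were taken from 6-month-old male zebrafish that were *cck1*-/-;*cck2*-/- (CCK1/2-KO) or wild type (WT), with 30 fish per group and 1 droplet library per group. The mutant line was made by CRISPR/Cas9 on fish described as AB strain, by crossing *cck1*-/- and *cck2*-/- single mutants, and the sources used here do not say whether the WT fish were relatives of the mutants. With 1 library of pooled fish per genotype, genotype, family and library cannot be told apart. In this assay each captured RNA molecule carries a unique molecular identifier (UMI), so that its amplified copies are counted as 1.

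The CCK1/2-KO library held 3755 barcodes and 15910570 UMIs, and the WT library held 5236 barcodes and 22358017 UMIs. After filtering, 3452 CCK1/2-KO cells with a median of 982.5 UMIs and 4858 WT cells with a median of 882.5 UMIs were kept. The libraries shared 11 barcodes, and no kept cell among them held a UMI of *tap2a*, *psmb8a*, *psmb9a* or *psmb12*. The cholecystokinin gene listed as *ccka* had 14 UMIs in CCK1/2-KO cells and 144 UMIs in WT cells, and the files do not tie this symbol to either targeted gene. The cells fell into 19 classes with at least 20 cells in each library. Of these, 9 were named from marker genes, with the ending "-like", and 10 clusters stayed unnamed and keep their numbers. Cluster 1 held 34.8% of CCK1/2-KO cells and 7.04% of WT cells. Among the hormone cells, only gonadotropes could be named. Clusters 7 and 10 held the somatotrope markers *gh1* and *pou1f1*, cluster 11 had the highest *prl* and *tshba* levels, and cluster 15 had the highest *pomca* level. By the number of detected markers, clusters 11 and 15 matched neurons best, with 5 neuron markers each. They are counted among the hormone cells here for their hormone levels only.

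Across all kept cells, UMIs assigned to *tap2a*, *psmb8a*, *psmb9a* and *psmb12* were few in the CCK1/2-KO library, at 6.17% to 17.8% of their WT levels. By the same measure *TAP1* was at 89.0% and *psmb10* at 82.3% of WT. Both were lower than this after adjustment for clusters and in myeloid-like cells, as given below. *tap2a*, a subunit of the peptide transporter, had 14 UMIs in 11 CCK1/2-KO cells and 321 UMIs in 125 WT cells. This was 0.911 per 1000000 UMIs (CPM, interval 0.498 to 1.53) in CCK1/2-KO cells and 14.8 CPM (13.2 to 16.5) in WT cells, a log2 ratio of -4.02 (-4.91 to -3.25). All intervals are exact 95% intervals for counting error only and do not cover differences between fish or libraries. Those of levels and ratios also take UMIs as independent, although several often came from the same cell, and are too narrow for the spread between cells.

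*psmb8a*, the immunoproteasome subunit with chymotrypsin-like activity, had 39 UMIs in 23 CCK1/2-KO cells and 309 UMIs in 179 WT cells, at 2.54 CPM (1.80 to 3.47) and 14.2 CPM (12.7 to 15.9). Its log2 ratio was -2.49 (-3.01 to -2.00). *psmb9a*, another catalytic subunit of the immunoproteasome, had 22 UMIs in 16 CCK1/2-KO cells and 206 UMIs in 126 WT cells, with a log2 ratio of -2.73 (-3.43 to -2.09). *psmb12* had 23 UMIs in 18 CCK1/2-KO cells and 279 UMIs in 185 WT cells, with a log2 ratio of -3.10 (-3.78 to -2.49). The intervals of the levels in the libraries lay apart for each of these 4 genes. Each of the 4 still had UMIs in at least 11 CCK1/2-KO cells. They are summed below as a set of 4, a grouping made after their values were seen.

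*TAP1*, the partner of *tap2a* in the transporter, had 209 UMIs in 148 CCK1/2-KO cells and 332 UMIs in 220 WT cells. Its level was 13.6 CPM (11.8 to 15.6) in CCK1/2-KO cells and 15.3 CPM (13.7 to 17.0) in WT cells, and the interval of the log2 ratio of -0.17 held 0 (-0.42 to 0.09). *psmb10*, the third interferon-inducible catalytic subunit known from mammals, had 174 UMIs in 130 CCK1/2-KO cells and 299 UMIs in 210 WT cells. At 11.3 CPM (9.70 to 13.1) in CCK1/2-KO cells and 13.8 CPM (12.2 to 15.4) in WT cells, its log2 ratio was -0.28 (-0.56 to -0.01). For *psmb13a*, 0 UMIs among the 15371718 of the CCK1/2-KO cells and the 21735903 of the WT cells allow levels of up to 0.195 CPM and 0.138 CPM, computed with 3 counts in place of 0, so that no ratio is given.

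**Figure D1:**
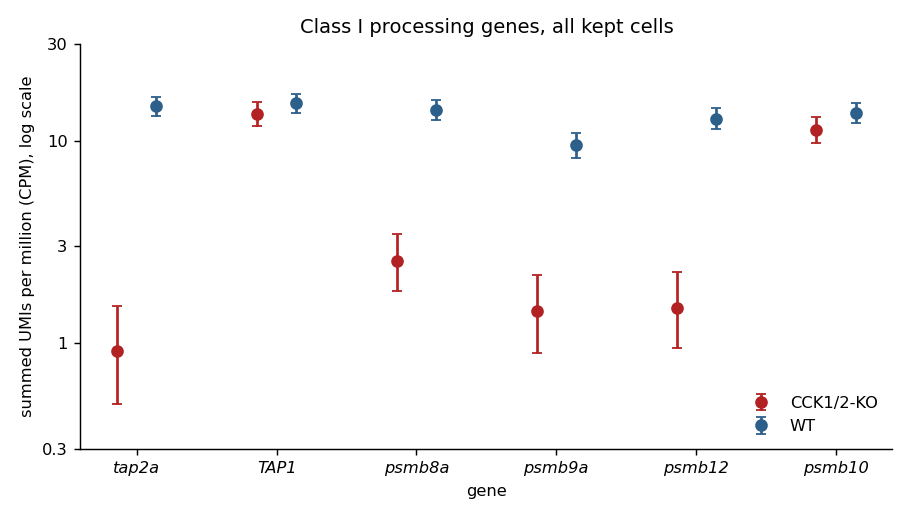
Summed CPM in all kept cells, on a log scale, for the 6 members with UMIs, with CCK1/2-KO to the left of WT and exact Poisson 95% intervals for counting error as bars. The CCK1/2-KO points of *tap2a*, *psmb8a*, *psmb9a* and *psmb12* lie between 0.911 and 2.54 CPM, below their WT points, while those of *TAP1* and *psmb10* lie beside their WT points.

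Over the 16523 genes that reached 50 UMIs in the libraries combined, 100 (0.605%) were at least 4-fold lower in CCK1/2-KO cells and 202 (1.22%) at least 4-fold higher, and the median log2 ratio was 0.24. Of the 6 members tested, 4 were at least 4-fold lower and 0 at least 4-fold higher. These members were chosen from this contrast, so the count says nothing beyond the choice. Counted from the lowest ratio, *tap2a* was at place 31, *psmb12* at 45, *psmb9a* at 62 and *psmb8a* at 70, while *psmb10* was at 2156 and *TAP1* at 2972. The intervals of *psmb10* and *TAP1* lay below the median of all genes, so both were low against a typical gene.

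**Figure D2:**
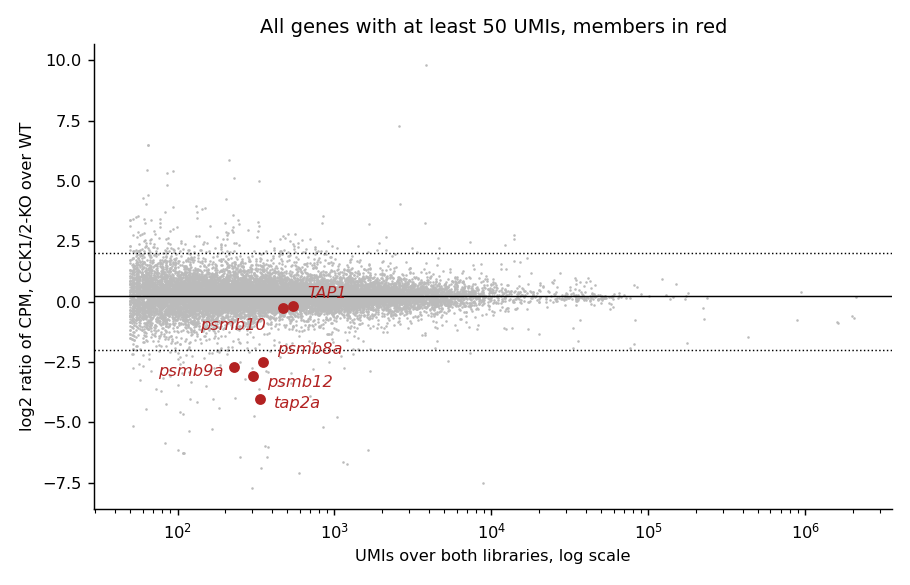
Log2 ratio of CPM, CCK1/2-KO over WT, against UMIs over both libraries (log scale) for the 16523 genes with at least 50 UMIs, with the median of 0.24 as a solid line and 4-fold as dotted lines. *tap2a*, *psmb12*, *psmb9a* and *psmb8a* lie below the lower dotted line, and *TAP1* and *psmb10* lie within the cloud.

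Immune cells made up more of the CCK1/2-KO library. T or NK-like cells were 3.94% of its cells and 2.43% of WT cells, and myeloid-like cells were 3.65% of its cells and 2.33% of WT cells. Cluster 18, which held B cell markers, was 2.43% of CCK1/2-KO cells and 0.473% of WT cells, with only 23 WT cells. The UMIs were therefore also set against those expected if each cluster of CCK1/2-KO cells had the level of the same cluster in WT. For *tap2a*, *psmb8a*, *psmb9a* and *psmb12* summed, 98 UMIs were found in CCK1/2-KO cells, against 1006.77 expected, a log2 ratio of -3.36 (-3.66 to -3.08). Without this step the summed log2 ratio was -3.01 (-3.32 to -2.71), from 6.38 CPM in CCK1/2-KO cells and 51.3 CPM in WT cells. Taken singly, the cluster-adjusted log2 ratio was -4.54 for *tap2a*, -2.80 for *psmb8a*, -3.01 for *psmb9a* and -3.33 for *psmb12*. It was -0.60 (-0.80 to -0.40) for *TAP1* and -0.43 (-0.65 to -0.21) for *psmb10*, so that both intervals then lay below 0. Cluster-adjusted intervals cover the counting error of the CCK1/2-KO UMIs only. They take the number expected from WT as exact and are therefore too narrow.

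In WT cells, the 4 genes had their highest summed levels in immune classes. The sum was 333 CPM (288 to 382) in T or NK-like cells, 302 CPM (214 to 415) in cluster 18, which held the B cell markers *cd79a* and *pax5*, 222 CPM (196 to 252) in myeloid-like cells and 192 CPM (133 to 268) in neutrophil-like cells. The T or NK-like and cluster 18 intervals overlapped, as did those of cluster 18 and myeloid-like cells and those of myeloid-like and neutrophil-like cells, but the T or NK-like level was above the myeloid-like level. Without the WT cell with the most of these UMIs in the class, cluster 18 was at 208 CPM from 23 UMIs. In the same way T or NK-like cells were at 292 CPM, myeloid-like cells at 212 CPM and neutrophil-like cells at 195 CPM. Cluster 6, which carried mural and endothelial markers, followed at 77.5 CPM (61.0 to 97.2) and mesenchymal-like cells at 61.6 CPM (48.9 to 76.6). The lowest WT sum was that of gonadotrope-like cells, at 5.27 CPM (1.93 to 11.5), from 6 UMIs in 2 of 108 cells. Its interval overlapped those of oligodendrocyte-like cells (1.20 to 35.8 CPM) and cluster 10 (2.57 to 36.4 CPM). Over all WT cells the sum was 51.3 CPM, and 33.1 CPM in cells without a UMI of 8 interferon-induced genes, which are named further on. The classes did not all go this way. In such cells the sum was higher in some, as in cluster 3 (45.9 against 42.9 CPM) and pituicyte-like cells (37.6 against 31.5 CPM). It was lower in others. In such cells the sum was 10.8 CPM in mesenchymal-like cells from 9 UMIs, 70.7 CPM in cluster 18 from 4 UMIs, 99.99 CPM in myeloid-like cells from 34 UMIs and 207 CPM in T or NK-like cells from 59 UMIs.

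In CCK1/2-KO cells the order was blurred by low counts. T or NK-like cells again had the highest sum, 33.5 CPM (20.7 to 51.2) from 21 UMIs in 8 cells, and their interval overlapped that of cluster 11, at 14.3 CPM (8.20 to 23.3) from 16 UMIs in 5 cells. Oligodendrocyte-like cells stood at 22.3 CPM (7.25 to 52.1), but all 5 of their UMIs were *psmb8a* UMIs of 1 cell. Myeloid-like cells held 8 UMIs in 7 cells, or 8.73 CPM (3.77 to 17.2). Neutrophil-like cells, cluster 2, cluster 3, cluster 10 and gonadotrope-like cells held 0 UMIs of the 4 genes.

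**Figure D3:**
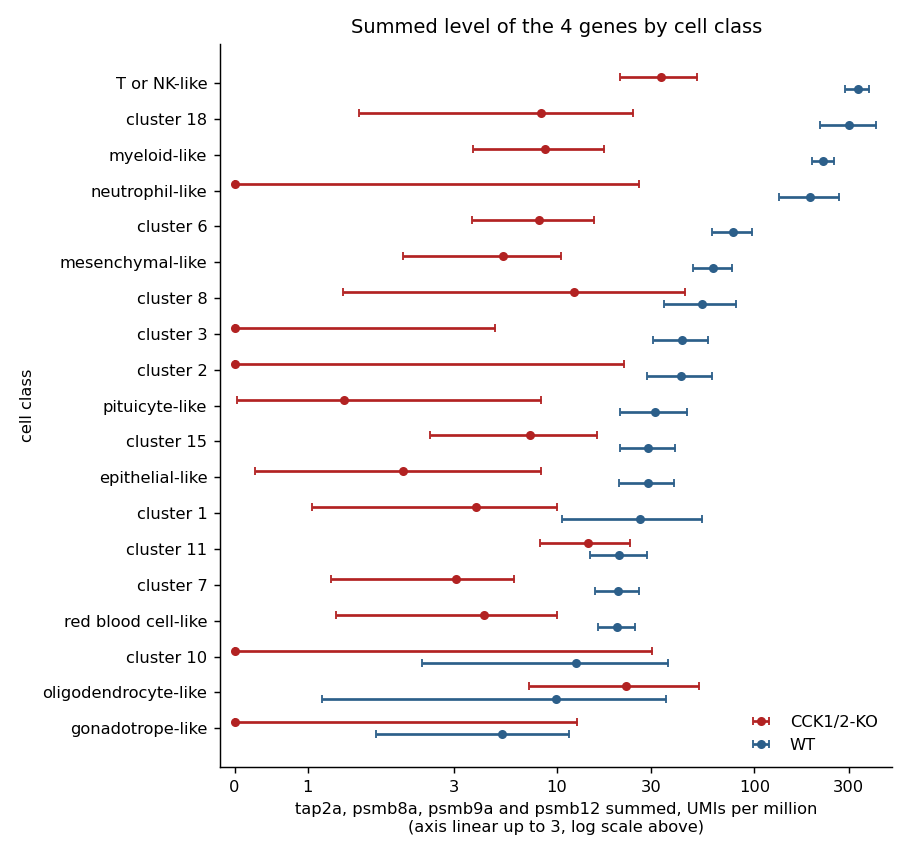
Summed CPM of *tap2a*, *psmb8a*, *psmb9a* and *psmb12* in each of the 19 classes, with CCK1/2-KO above WT and exact Poisson 95% intervals, on an axis that is linear up to 3 CPM and logarithmic above. WT T or NK-like cells are highest at 333 CPM, and the CCK1/2-KO points lie to the left of the WT points in every class but oligodendrocyte-like cells, where the CCK1/2-KO value rests on 1 cell.

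Each member was then taken class by class, where a class had at least 20 UMIs of it over both libraries. As background, the share of all genes with that many UMIs that were at least 4-fold lower in CCK1/2-KO cells was 3.01% in T or NK-like cells, 4.43% in myeloid-like cells, 3.07% in neutrophil-like cells and 1.56% in cluster 18. It was 1.79% in cluster 6, 2.33% in mesenchymal-like, 1.74% in epithelial-like, 2.96% in pituicyte-like, 1.45% in oligodendrocyte-like and 5.42% in red blood cell-like cells. Among hormone cells it was 1.19% in cluster 7, 1.1% in cluster 10, 1.61% in cluster 11, 1.59% in cluster 15 and 6.08% in gonadotrope-like cells, and elsewhere 1.44% in cluster 1, 3.11% in cluster 2, 8.48% in cluster 3 and 2.2% in cluster 8. A 4-fold lower level was thus uncommon in most classes. The members' class ratios come from the libraries that chose the members and are descriptions too. For *tap2a*, *psmb8a*, *psmb9a* and *psmb12*, classes reached the minimum largely through their WT UMIs. Counts of classes called lower for these genes therefore follow in part from the minimum.

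*tap2a* was at least 4-fold lower in 4 of 4 such classes. It had 6 UMIs in CCK1/2-KO T or NK-like cells and 75 UMIs in WT T or NK-like cells, a log2 ratio of -3.71 (-5.20 to -2.52). In myeloid-like cells it had 0 UMIs in CCK1/2-KO and 84 UMIs in WT, which is at least 22.8-fold lower with 3 counts in place of 0. Mesenchymal-like cells held 2 UMIs of *tap2a* in CCK1/2-KO and 36 in WT (log2 ratio -4.36, -7.46 to -2.41), and cluster 6 held 1 and 33 (-5.24, -10.59 to -2.66).

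*psmb8a* was at least 4-fold lower in 4 of 6 classes. Myeloid-like cells held 1 UMI of it in CCK1/2-KO and 69 in WT, a log2 ratio of -5.81 (-11.14 to -3.29), and neutrophil-like cells held 0 in CCK1/2-KO and 25 in WT, at least 6.68-fold lower. T or NK-like cells held 8 UMIs in CCK1/2-KO and 34 in WT (log2 ratio -2.16, -3.48 to -1.02), and cluster 6 held 5 and 23 (-2.40, -4.15 to -0.97). The classes within 4-fold were hormone cell clusters. Cluster 7 held 5 UMIs in CCK1/2-KO and 15 in WT (-1.36, -3.17 to 0.18), and cluster 11 held 7 UMIs in CCK1/2-KO and 20 in WT (-0.80, -2.28 to 0.50).

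*psmb9a* could be read in 2 classes and was at least 4-fold lower in both. T or NK-like cells held 5 UMIs of it in CCK1/2-KO and 51 in WT (log2 ratio -3.42, -5.10 to -2.10), and myeloid-like cells held 4 and 59 (-3.59, -5.51 to -2.15). *psmb12* was at least 4-fold lower in 6 of 6 classes. It had 2 UMIs in CCK1/2-KO T or NK-like cells and 39 in WT T or NK-like cells (-4.35, -7.45 to -2.40), and 3 UMIs in CCK1/2-KO myeloid-like cells and 38 in WT myeloid-like cells (-3.37, -5.71 to -1.71). Outside the immune classes, *psmb12* had 1 UMI in CCK1/2-KO and 24 in WT cells of cluster 7 (-4.36, -9.72 to -1.74), 1 and 20 in mesenchymal-like cells (-4.52, -9.89 to -1.87), and 2 and 46 in red blood cell-like cells (-2.58, -5.67 to -0.65). In cluster 3 it had 0 UMIs in CCK1/2-KO and 22 in WT, at least 5.87-fold lower.

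Summing the 4 genes made 15 of the 19 classes readable, to see how the difference varied over cell types. The log2 ratio was below 0 in 15 of 15 classes and at least 4-fold lower in 12. Here too the classes passed the minimum largely through WT UMIs, so these counts follow in part from it. Oligodendrocyte-like cells, with 5 UMIs in CCK1/2-KO and 2 in WT, were under the minimum. In 12 of 15 classes the interval held the cluster-adjusted ratio of all cells, -3.36. That ratio is pooled from the same classes, and many of the intervals are wide. Holding it therefore does not show that the difference was even. T or NK-like cells held 21 UMIs in CCK1/2-KO and 199 in WT, a log2 ratio of -3.31 (-4.04 to -2.66). Mesenchymal-like cells held 8 and 81 (-3.53, -4.79 to -2.49), cluster 6 held 9 and 75 (-3.26, -4.44 to -2.25), and cluster 7 held 8 and 62 (-2.73, -4.00 to -1.66). These classes, of immune, connective, vascular and hormone cells, had overlapping intervals. The mesenchymal-like ratio depended on single cells, as 5 of the 8 CCK1/2-KO UMIs and 19 of the 81 WT UMIs were in 1 cell each, and without those cells it was -4.60 (-6.91 to -2.98).

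The 3 classes whose intervals left out -3.36 were myeloid-like cells, cluster 18 and cluster 11. Myeloid-like cells lay lower, with 8 UMIs in CCK1/2-KO and 250 in WT (log2 ratio -4.67, -5.90 to -3.67), as did cluster 18 with 3 and 38 (-5.19, -7.53 to -3.54). Without the cell with the most of these UMIs in each library, cluster 18 held 2 and 23 (-5.23, -8.36 to -3.21). Its interval then held -3.36, whereas that of myeloid-like cells still left it out (-4.99, -6.45 to -3.84). Cluster 11, with the highest *prl* and *tshba* levels, lay higher, with 16 UMIs in 5 CCK1/2-KO cells and 38 UMIs in 21 WT cells (-0.53, -1.47 to 0.35). Leaving out the cell with the most of these UMIs in each library left 10 and 32 UMIs in cluster 11, with a log2 ratio of -0.94 (-2.13 to 0.12). Its interval therefore held 0 with and without that cell, and neither interval held -3.36. Cluster 15 was the other class within 4-fold, with 6 UMIs in CCK1/2-KO and 40 in WT (-1.99, -3.52 to -0.75). Cluster 2 held 0 and 30, which gives a bound of -1.26 and does not show whether it passed 4-fold.

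In cells without a UMI of the interferon-induced genes, 12 classes could be read, and the counts do not show whether the exceptions below -3.36 were kept. The cluster-adjusted ratio of all such cells was -2.59. Myeloid-like cells then held 7 UMIs in CCK1/2-KO and 34 in WT. Their ratio still lay below -2.59 and -3.36, but the wider interval held both (-3.54, -4.96 to -2.35). Cluster 18 was left with 3 UMIs in CCK1/2-KO and 4 in WT, too few to be read. T or NK-like cells held 21 and 59 (-2.27, -3.06 to -1.53), which held -2.59 and left out -3.36, and cluster 11 held 16 and 35 (-0.54, -1.50 to 0.35), which left out both.

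**Figure D4:**
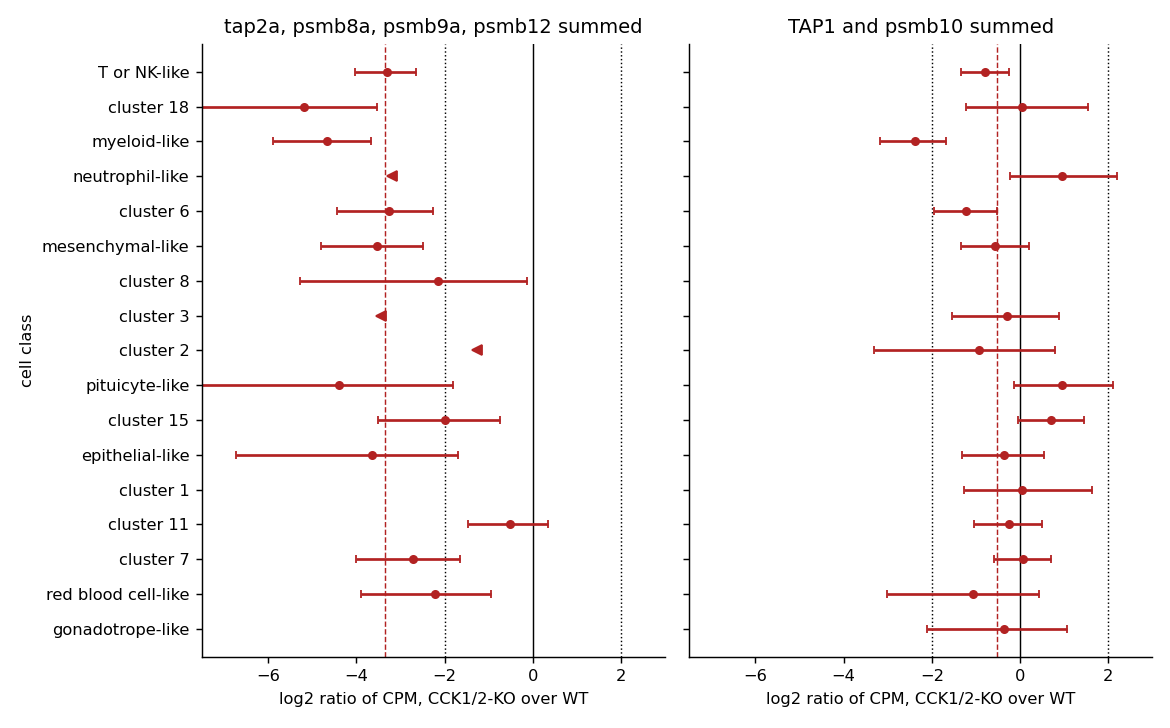
Log2 ratio of CPM, CCK1/2-KO over WT, by class for the 4 genes summed (left) and for *TAP1* and *psmb10* summed (right), in classes with at least 20 such UMIs, with exact 95% intervals that may run past the left edge, arrowheads for bounds where CCK1/2-KO held 0 UMIs, 4-fold as dotted lines and the cluster-adjusted ratio of all cells as a dashed line (-3.36 and -0.52). The points on the left lie at -0.53 or below, and on the right only myeloid-like cells lie beyond 4-fold, at -2.39.

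*TAP1* was within 4-fold of WT in 9 of 9 classes. In T or NK-like cells it had 40 UMIs in CCK1/2-KO and 48 in WT, a log2 ratio of -0.33 (-0.97 to 0.31), beside the -3.71 of *tap2a* in the same cells. Cluster 7 held 21 UMIs in each library (0.23, -0.72 to 1.17), and pituicyte-like cells held 15 in CCK1/2-KO and 10 in WT (0.99, -0.26 to 2.31). The intervals lay below 0 in 2 classes, namely myeloid-like cells with 11 UMIs in CCK1/2-KO and 53 in WT (-1.97, -3.06 to -1.02) and cluster 6 with 16 and 40 (-1.52, -2.45 to -0.65).

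*psmb10* was at least 4-fold lower in 2 of 9 classes, both immune. Myeloid-like cells held 8 UMIs of it in CCK1/2-KO and 69 in WT (log2 ratio -2.81, -4.08 to -1.75), and T or NK-like cells held 8 and 31 (-2.02, -3.35 to -0.87). In the other 7 classes its log2 ratio lay between -1.81 in red blood cell-like cells and 0.65 in cluster 15, each with an interval that held 0. With *TAP1* and *psmb10* summed, 16 classes could be read, and 1 of them, the myeloid-like cells, was at least 4-fold lower (19 UMIs in CCK1/2-KO and 122 in WT, -2.39, -3.17 to -1.68). The interval of this sum lay below 0 in 3 classes. Besides myeloid-like cells these were T or NK-like cells, with 48 UMIs in CCK1/2-KO and 79 in WT, and cluster 6, with 27 and 55. In the other classes it held 0, as in cluster 7 (0.06, -0.59 to 0.71) and cluster 15 (0.70, -0.05 to 1.45). The myeloid-like cells were thus low for each of the 6 members with UMIs.

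The remaining UMIs in the CCK1/2-KO library came from few cells. At least 1 of *tap2a*, *psmb8a*, *psmb9a* and *psmb12* was found in 56 of 3452 CCK1/2-KO cells (1.62%) and in 446 of 4858 WT cells (9.18%). After each cell was thinned to 1000 UMIs, leaving out shallower cells, the expected shares were 0.578% of 1704 CCK1/2-KO cells and 4.40% of 2223 WT cells. The CCK1/2-KO cells with such a UMI came from 14 clusters, and 37 of the 56 held 1 UMI. The share that free RNA gives was not measured for these genes, so a cell with 1 UMI cannot be read as expressing the gene. The most in 1 CCK1/2-KO cell was 6 UMIs, in a cell of cluster 11 with 3 of *psmb8a* and 3 of *psmb12* and in a T or NK-like cell with 2 of *tap2a*, 1 of *psmb8a* and 3 of *psmb9a*. The most in 1 WT cell was 29 UMIs, in a T or NK-like cell with 7 of *tap2a*, 9 of *psmb8a*, 6 of *psmb9a* and 7 of *psmb12*.

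Among cells with any of the 4 genes, 10 of 56 CCK1/2-KO cells (17.9%, 8.91% to 30.4%, Clopper-Pearson) and 114 of 446 WT cells (25.6%, 21.6% to 29.9%) held at least 2 of them. All 4 were seen together in 0 CCK1/2-KO cells and in 14 WT cells. The intervals of these shares overlapped. The cells with a UMI were deep, with medians of 12785 UMIs in CCK1/2-KO and 8799.5 UMIs in WT, so that the share of cells with a UMI follows depth as well as level.

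The order of the genes along the chromosome was read from the RefSeq annotation of the GRCz12tu assembly, which is not the GRCz11 build of the counts, and therefore only for neighbourhood and without positions. In that order *psmb13a*, *psmb8a*, *psmb12*, *psmb9a* and *tap2a* follow each other with no other listed gene between them. All 4 low members thus lie in 1 unbroken run, with *psmb13a*, at 0 UMIs in both libraries, at its end. On the *psmb13a* side of this run the next matched genes were *mhc1uba*, a class I heavy chain, at a log2 ratio of -1.15 (-1.20 to -1.09), and *tapbp.2*, which encodes a tapasin, with 12 UMIs in CCK1/2-KO and 96 in WT (-2.50, -3.50 to -1.63). Beyond them *daxx*, a chromatin regulator, was at 0.08 (-0.20 to 0.36). On the *tap2a* side the next gene was *brd2a*, a bromodomain gene, with 6333 UMIs in CCK1/2-KO and 6508 in WT (0.46, 0.41 to 0.51).

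Within 500 kb of *tap2a*, *psmb8a*, *psmb9a*, *psmb12* or *psmb13a*, 23 neighbouring genes with at least 50 UMIs could be matched. Their median log2 ratio was 0.27, against 0.24 over all genes. Of these 23, 1 (*tapbp.2*) was at least 4-fold lower in CCK1/2-KO cells and 1 (*col11a2*, a fibrillar collagen) was at least 4-fold higher, at 2.32 (2.10 to 2.55). The 5 lowest were *tapbp.2*, *mhc1uba*, *mrpl9* (-0.80), *mrpl24* (-0.24) and *sf3b4* (-0.19), and the 5 highest were *col11a2*, *kifc1* (1.57), *lix1l* (0.95), *mllt11* (0.90) and *s100a11* (0.84). *TAP1* and *psmb10* lie elsewhere in the genome, each on another chromosome. The 6 tested neighbours of *TAP1* had log2 ratios between -0.13 and 0.90, and the 8 tested neighbours of *psmb10* had log2 ratios between -0.33 and 1.05.

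**Figure D5:**
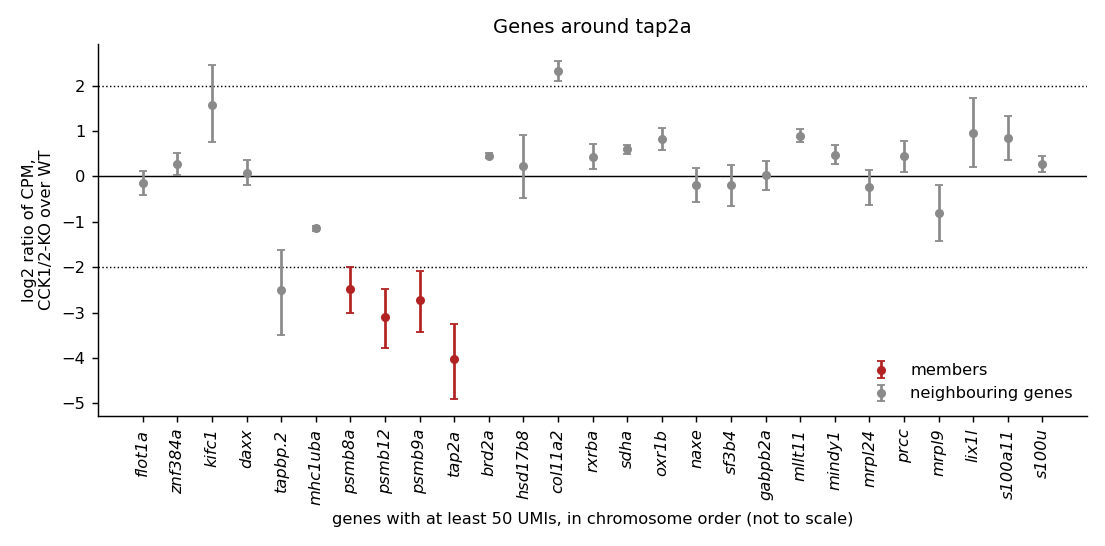
Log2 ratio of CPM, CCK1/2-KO over WT, with exact 95% intervals for the 27 genes around *tap2a* with at least 50 UMIs, in chromosome order and not to scale, with members in red and 4-fold as dotted lines. The 4 members form a low run between -4.02 and -2.49, bordered by *mhc1uba* and *tapbp.2* on the left and by *brd2a*, at 0.46, on the right.

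Most other genes of the class I pathway lay closer to their WT levels than these 4 genes. Of 10 tested genes of peptide transport and loading, 1 (*tapbp.2*) was at least 4-fold lower and 0 at least 4-fold higher, with a median log2 ratio of -0.17. In this list *erap1b*, a peptidase that trims peptides, was at -1.03 (-1.44 to -0.64), and *b2m*, the light chain of the class I molecule, at -0.14 (-0.17 to -0.11). Of 31 listed class I heavy chains, 13 were found among the counted genes and 7 could be tested. Of these 7, 0 passed 4-fold in either direction, and the median was 0.06, with *mhc1uba* lowest and *mhc1zda* highest at 1.17 (0.79 to 1.54). *mhc1uba* was the only gene found of those named *mhc1u*, and the others tested were *mhc1z* and *mhc1l* genes, so the median does not describe the *mhc1u* genes. The 3 constitutive catalytic subunits, which the immunoproteasome subunits replace, were within 4-fold, with *psmb5* at 0.28, *psmb6* at 0.03 and *psmb7* at 0.18.

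Of the other proteasome genes, 0 of 13 core subunits and 0 of 5 other immunoproteasome subunits and activators passed 4-fold, with medians of -0.15 and -0.33. Among the activators were *psme2*, a subunit of the interferon-inducible proteasome activator, at -0.81 (-0.92 to -0.69), and its partner *psme1* at -0.30 (-0.46 to -0.15). *nlrc5*, which in mammals drives transcription of class I genes, was at -0.18 (-0.44 to 0.08), and the interferon-regulated transcription factor *irf1b* at -0.26 (-0.37 to -0.16). Of 3 class II presentation genes, 0 passed 4-fold, with a median of 0.09.

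*mhc1uba*, whose product presents the peptides and which neighbours the low members, had 4147 UMIs in CCK1/2-KO cells and 12968 UMIs in WT cells, enough to be read in each of the 19 classes. It was at least 4-fold lower in 5 of them, namely neutrophil-like cells (log2 ratio -3.10, -3.76 to -2.51), pituicyte-like cells (-2.66, -2.95 to -2.38), myeloid-like cells (-2.44, -2.60 to -2.28), mesenchymal-like cells (-2.23, -2.45 to -2.02) and cluster 6 (-2.01, -2.20 to -1.83). In hormone clusters 7 and 11 it was at -0.17 (-0.33 to -0.02) and -0.28 (-0.50 to -0.06). In gonadotrope-like cells, where 1.95% of genes were at least 4-fold higher, it was higher in CCK1/2-KO (2.13, 1.40 to 2.87). This rests on 36 UMIs in only 20 CCK1/2-KO cells, the minimum for a class, and 32 UMIs in 108 WT cells. Its cluster-adjusted ratio over all cells was -1.51, which lay within the interval of 2 of the 19 classes.

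Interferon-induced genes, several of which respond to the same signals as the immunoproteasome genes, were also lower in the CCK1/2-KO library. The 8 genes *isg15*, *mxa*, *mxb*, *mxc*, *rsad2*, *ifit8*, *ifit14* and *ifi44c1* summed to 1025 UMIs in CCK1/2-KO cells, 289 of them in 1 cell, and to 2649 UMIs in WT cells. This was 66.7 CPM (62.7 to 70.9) in CCK1/2-KO cells and 122 CPM (117 to 127) in WT cells, a log2 ratio of -0.87 (-0.98 to -0.77). None of the 8 was at 0 in either library, *mxc* was lowest at -2.93, and *mxb* and *ifit14* were higher in CCK1/2-KO, at 0.80 and 0.84. Without the cell with 289 UMIs, the summed level in CCK1/2-KO cells would be lower still. The part of that cell in the single ratios was not tested. *ifi44c1*, with 23 UMIs in CCK1/2-KO and 12 in WT, was under the minimum for a ratio. Over the 16 classes with at least 20 UMIs of these genes, the sum ranged between 5.97 and 251 CPM in CCK1/2-KO and between 12.3 and 634 CPM in WT, and the ratio was below 0 in 15.

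The classes did not order alike for the 2 sets of genes. Myeloid-like cells were low in both, with interferon-induced genes at 40 UMIs in CCK1/2-KO and 392 in WT (log2 ratio -3.00, -3.50 to -2.53). In T or NK-like cells they had 68 UMIs in CCK1/2-KO and 102 in WT (-0.65, -1.12 to -0.20), beside -3.31 for the sum of *tap2a*, *psmb8a*, *psmb9a* and *psmb12*. In cluster 11 they had 9 UMIs in CCK1/2-KO and 58 in WT (-1.97, -3.17 to -0.95), beside -0.53 for that sum. Among the 3119 CCK1/2-KO and 3988 WT cells without a UMI of the 8 genes, the sum of the 4 was 86 UMIs in CCK1/2-KO and 520 in WT, or 6.66 CPM and 33.1 CPM, a log2 ratio of -2.31 (-2.66 to -1.98). In the same cells *TAP1* and *psmb10* summed to 297 UMIs in CCK1/2-KO and 360 in WT, a log2 ratio of 0.01 (-0.22 to 0.23). With medians of 982.5 UMIs per CCK1/2-KO cell and 882.5 per WT cell, a cell without such a UMI need not lack these transcripts. Leaving out cells with a UMI therefore cannot separate the part of the interferon-induced genes in the ratios, which was not tested.

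Over the 38 points given by 19 classes in 2 libraries, the gene with the pattern most like that of *tap2a* was *psmb9a*, with a Pearson r of 0.926 between values of log2(CPM + 10), followed by *psmb12* at 0.814 and *erap1b* at 0.813. The genes most like *psmb8a* were *mhc1uba* (0.799), *psmb9a* (0.789) and si:ch211-244b2.4 (0.785), and *gig2i* (0.858) came after *tap2a* for *psmb9a*. *TAP1* had another set, with *b2m* at 0.854, *gig2h* at 0.833 and *arpc3*, an actin-nucleating subunit, at 0.832. For *psmb10* the highest values were lower, with *kbtbd2* at 0.740 and *btr29* at 0.735 after an unnamed gene at 0.758, and its r with *tap2a* was 0.318. These values describe points that share libraries and depth. The points also hold the contrast between the libraries from which the members were chosen. High r among the low members, and lower r with *TAP1* and *psmb10*, therefore follow in part from that choice.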

How the data were processed

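Whole pituitaries of 30 male zebrafish per group were dissociated, and 1 droplet library was made per group, CCK1/2-KO and WT. The authors aligned the reads and counted UMIs per gene and barcode with Cell Ranger on the GRCz11 genome, per the submitters' processing notes, and the deposited values are raw UMI counts for 1 matrix per library. Barcodes with at least 200 genes and at most 20% mitochondrial UMIs were kept. Scrublet's own threshold marked 0 doublets in each library, so the highest-scoring barcodes, 107 in CCK1/2-KO and 212 in WT, were dropped to match an assumed doublet rate of 0.8% for every 1000 barcodes. Cells of both libraries were clustered together with scanpy 1.11.5 (2000 variable genes, 30 principal components, 20 neighbours, leidenalg 0.10.2 at resolution 1), without the pathway, hormone, mitochondrial and *CCKBR* genes. Clusters were named from markers of 20 cell types where at least 3 were detected. A cluster stayed unnamed where types tied, where its 10 leading genes held no marker of the type or more of another type, or where it had the highest level of another type's hormone. The names were rebuilt and may differ from those of the study.

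UMIs were summed per library and class as CPM with exact Poisson intervals, and ratios have exact conditional 95% intervals (numpy 2.4.6, scipy 1.17.1, pandas 2.3.3, matplotlib 3.10.9). Cluster-adjusted ratios instead have the exact Poisson interval of the CCK1/2-KO count, with the expected number taken as fixed. PCR copies were collapsed by UMI, and the intervals cover counting error only. With 1 library per group no test between groups was possible. Ratios needed 50 UMIs over both libraries, or 20 in a class with at least 20 cells per library, a call was a 4-fold difference, and a count of 0 was replaced by 3. The named genes were the 7 members, pathway lists, the 5 lowest and 5 highest neighbours within 500 kb, and the 3 genes most like each member. Members and lists were chosen with earlier results of these data known. Neighbour order was taken from RefSeq on GRCz12tu. The ratio code was tested on simulated data. Alternatives covered cell filters, doublets, thinning, denominator, clustering and single cells. Promoter motifs were not analysed here.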

Additional observations from a re-analysis of the deposited data

How the results depend on the processing

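Of 220 recomputed values, 201 stayed within the counting interval of the reported value and 19 left it, and 3 log2 ratios changed sign. Over all alternatives the log2 ratio of the sum of *tap2a*, *psmb8a*, *psmb9a* and *psmb12* lay between -3.19 and -2.31 in all cells and between -3.42 and -2.59 after adjustment for clusters. Nearly all of the values that left it, and all 3 changes of sign, came from an alternative chosen after seeing the data, without cells that held a UMI of the 8 interferon-induced genes. It gave -3.08 for *tap2a* and -1.87 for *psmb9a* in all cells, and cluster-adjusted ratios of -3.58 for *tap2a*, -2.24 for *psmb8a*, -2.23 for *psmb9a* and -2.70 for *psmb12*. The sum of the 4 was then -2.31 in all cells, -2.59 adjusted, -2.27 in T or NK-like cells and -3.54 in myeloid-like cells. The values that changed sign were *TAP1* in all cells, at 0.04, and the sum of *TAP1* and *psmb10*, at 0.0056 in all cells and 0.31 in mesenchymal-like cells. The summed WT level of the 4 was then 207 CPM in T or NK-like, 99.99 CPM in myeloid-like and 10.8 CPM in mesenchymal-like cells. Leaving out the cell with the most UMIs moved the mesenchymal-like WT level to 48.5 CPM. Thinning to 1000 UMIs moved the adjusted ratio of *psmb12* to -2.72. Leaving hormone, globin and mitochondrial UMIs out of the total shifted every log2 ratio in all cells, and so the median of all genes, by -0.18, which put *TAP1* at -0.35 (-0.61 to -0.09) and *psmb10* at -0.46. Relative to all genes the members' ratios did not move. For the other moves the cause was not tested. Clustering each library on its own gave no comparable class, since T or NK-like cells were then named only in WT and myeloid-like cells only in CCK1/2-KO, and the CCK1/2-KO mesenchymal-like cluster held 12 cells. No paired analysis was possible because each group is 1 library. Depth limits the classes: 4 of 19 held under 20 UMIs of the 4 genes, and several ratios rest on 1 to 3 CCK1/2-KO UMIs.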

Other observations

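*tapbp.2*, the tapasin gene beside the low members, could be read in 2 classes. It had 1 UMI in CCK1/2-KO T or NK-like cells and 20 in WT T or NK-like cells, a log2 ratio of -4.39 (-9.76 to -1.75), and 0 UMIs in CCK1/2-KO myeloid-like cells and 24 in WT myeloid-like cells, at least 6.52-fold lower. Both classes passed the minimum through their WT UMIs, so their low ratios follow in part from it. Classes under the minimum went both ways. Clusters 3 and 7 each held 3 UMIs in CCK1/2-KO and 2 in WT. Mesenchymal-like cells held 1 and 11, and cluster 6 held 0 and 11. Among the cells with a UMI of *tap2a*, *psmb8a*, *psmb9a* or *psmb12*, 48 of 56 CCK1/2-KO cells and 306 of 446 WT cells also held *mhc1uba*. Over all cells *mhc1uba* was found in 28.6% of CCK1/2-KO cells and 32.9% of WT cells. Cells with a UMI of the 4 genes had medians of 12785 UMIs in CCK1/2-KO and 8799.5 in WT. Cells without had medians of 971 and 823. The overlap therefore cannot be told apart from depth. *TAP1* or *psmb10* was found in 264 CCK1/2-KO cells (7.65%) and 385 WT cells (7.93%).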
